A study of Mus musculus with 6 samples.

Results

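The BCL2 family of apoptosis regulators was followed through 10 of its genes, Bcl2, Bcl2l1, Mcl1, Bak1, Bok, Bcl2l11, Bid, Bad, Bmf and Pmaip1, in total RNA of 4T1 cells. The members were taken by gene symbol, and all 10 were found among the 48587 genes of the deposited count table. 4T1 is a mouse mammary carcinoma line. The METTL7A1 group comprised 3 libraries of 4T1 cells that stably carry full-length Mettl7a1 cDNA in the pBICEP-CMV-2 vector and were kept under G418 selection, and the control group comprised 3 libraries of mock 4T1 cells, both described as biological triplicates. METTL7A1 is a putative methyltransferase, and the comparison asks how its expression alters the transcriptome of these cells. The paper describes mock 4T1 cells as stably transfected with the empty vector. Whether the transfected cells were 1 clone or a pool is not given in the sources used here.

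Library totals lay between 18386780 and 28459338 counts. Abundances are cpm, that is, read counts divided by the TMM-scaled library size and multiplied by 1000000, given as mean ± SD of n = 3 libraries, and 13166 genes with at least 1 cpm in at least 3 libraries were tested with edgeR's quasi-likelihood test. The transfected gene Mettl7a1 held 6355, 11358 and 10398 counts in the METTL7A1 libraries and 30, 30 and 29 counts in the mock libraries. Of the epithelial markers Krt8, Krt18, Epcam, Cdh1, Krt14 and Krt5, the first 4 lay above 100 cpm in every library and none of those 4 was called, Krt14 fell by 1.94 on the log2 scale (edgeR adjusted p = 7.54e-08), and Krt5 had 0 counts in every library. The summed level of the 4 fibroblast markers was 23.9 to 26.6 cpm with METTL7A1 and 17.4 to 19.8 cpm in mock, nearly all of it Pdgfra, while Col1a1, Col1a2 and Dcn were under the filter. That of the 3 leukocyte markers was 11.5 to 14.1 cpm against 4.87 to 6.28 cpm, nearly all of it Cd68, with Cd3e at 0 in every library and Ptprc under the filter. Both endothelial markers, Pecam1 and Cdh5, were under the filter, with a summed level of 0.754 to 0.779 cpm with METTL7A1 and 0.413 to 0.644 cpm in mock. Vim, the mesenchymal intermediate filament gene, fell by 1.16 on the log2 scale (252 ± 27.6 against 564 ± 59.5 cpm, edgeR adjusted p = 1.17e-05). The part of any other cell type in the member values was not tested.

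Proteins of the BCL2 family control whether the outer mitochondrial membrane is opened during intrinsic apoptosis, the step that releases cytochrome c and leads to caspase activation. Effectors such as BAK and BOK permeabilise the membrane, and anti-apoptotic members such as BCL2, BCL-XL and MCL1 restrain effectors of the BAK type. BH3-only proteins sense stress and either neutralise the anti-apoptotic members or activate effectors such as BAK. Members recognise each other through the BH3 motif, a short helix that fits into a groove on the anti-apoptotic partners, and much of the control of the family lies in protein stability and phosphorylation, which RNA levels do not measure.

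The stretch coding for this motif is shown because it is the element the members share across their roles. A script searched the longest complete coding sequence of each member (GENCODE M21 models, GRCm38) for a leucine codon, any 3 codons, a glycine, alanine or serine codon, an aspartate codon and then an aspartate, glutamate, glycine or glutamine codon, and found exactly 1 match in each of the 9 members searched. The choices take in the serine codon of Bad and the alanine codon of Bmf, so the matches locate the motif and do not test it. Each run below has 45 bases, 5′ to 3′ on the coding strand, and the capitals mark the leucine codon and the pair of codons that ends in aspartate. The first 3 belong to anti-apoptotic members, the next 2 to effectors and the last 4 to BH3-only members. Positions are chr1:106712566-106712610 (minus strand, exon 1) for Bcl2, chr2:152829688-152829732 (minus, exon 2) for Bcl2l1, chr3:95659427-95659471 (plus, exon 1) for Mcl1, chr17:27022522-27022566 (minus, exon 4) for Bak1, chr1:93686648-93689179 (plus, joined over exons 2 and 3) for Bok, chr2:128147141-128147185 (plus, exon 3) for Bcl2l11, chr6:120897280-120897324 (minus, exon 4) for Bid, chr19:6950783-6950827 (plus, exon 3) for Bad and chr2:118545091-118545135 (minus, exon 4) for Bmf.
Bcl2: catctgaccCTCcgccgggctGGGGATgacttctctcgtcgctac
Bcl2l1: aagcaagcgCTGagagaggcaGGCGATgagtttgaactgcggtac
Mcl1: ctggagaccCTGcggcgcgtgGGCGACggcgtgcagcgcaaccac
Bak1: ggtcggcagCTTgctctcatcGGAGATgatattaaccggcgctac
Bok: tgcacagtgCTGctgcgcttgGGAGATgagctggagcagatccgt
Bcl2l11: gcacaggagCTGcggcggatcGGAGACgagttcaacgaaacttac
Bid: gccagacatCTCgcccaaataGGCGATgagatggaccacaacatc
Bad: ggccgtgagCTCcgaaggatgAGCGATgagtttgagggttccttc
Bmf: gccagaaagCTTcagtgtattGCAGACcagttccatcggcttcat

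Over the 36 pairs of members, a median of 21 of the 45 bases were identical, the marked codons included, with the highest identity between Bcl2l11 and Bad (26 bases, 57.8%) and the lowest between Bcl2 and Bok (15 bases, 33.3%). No member shared an exon with another gene on the same strand.

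Most of the tested members were higher with METTL7A1, and Bok was lower. Of the 9 members that passed the abundance filter, Bcl2, Bcl2l1, Bak1, Bcl2l11, Bid and Bmf were called higher at an adjusted p under 0.05 and Bok was called lower, while Mcl1 and Bad were not called and Pmaip1 was below the filter. That is 7 of 9 members called, 6 higher and 1 lower, where 42.1% of all tested genes were called, 21.1% higher and 21.0% lower. Bmf passed the filter through its METTL7A1 libraries alone and so had to differ between the groups. Without Bmf, 6 of 8 members were called, 5 higher and 1 lower. The groups did not overlap for 8 of the 9, including Mcl1, and for 7 of 8 without Bmf, against 51.6% of all tested genes. The median log2 fold change was 0.40 over the 9 members and 0.31 without Bmf, and it was -0.03 over all tested genes. The differences were modest in size: at the thresholds used in the study (adjusted p under 0.01 and a log2 fold change over 1.5 in either direction), which took in 2.48% of all tested genes, Bmf was the 1 member called. The plot of each member in each library shows these levels.

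**Figure D1:**
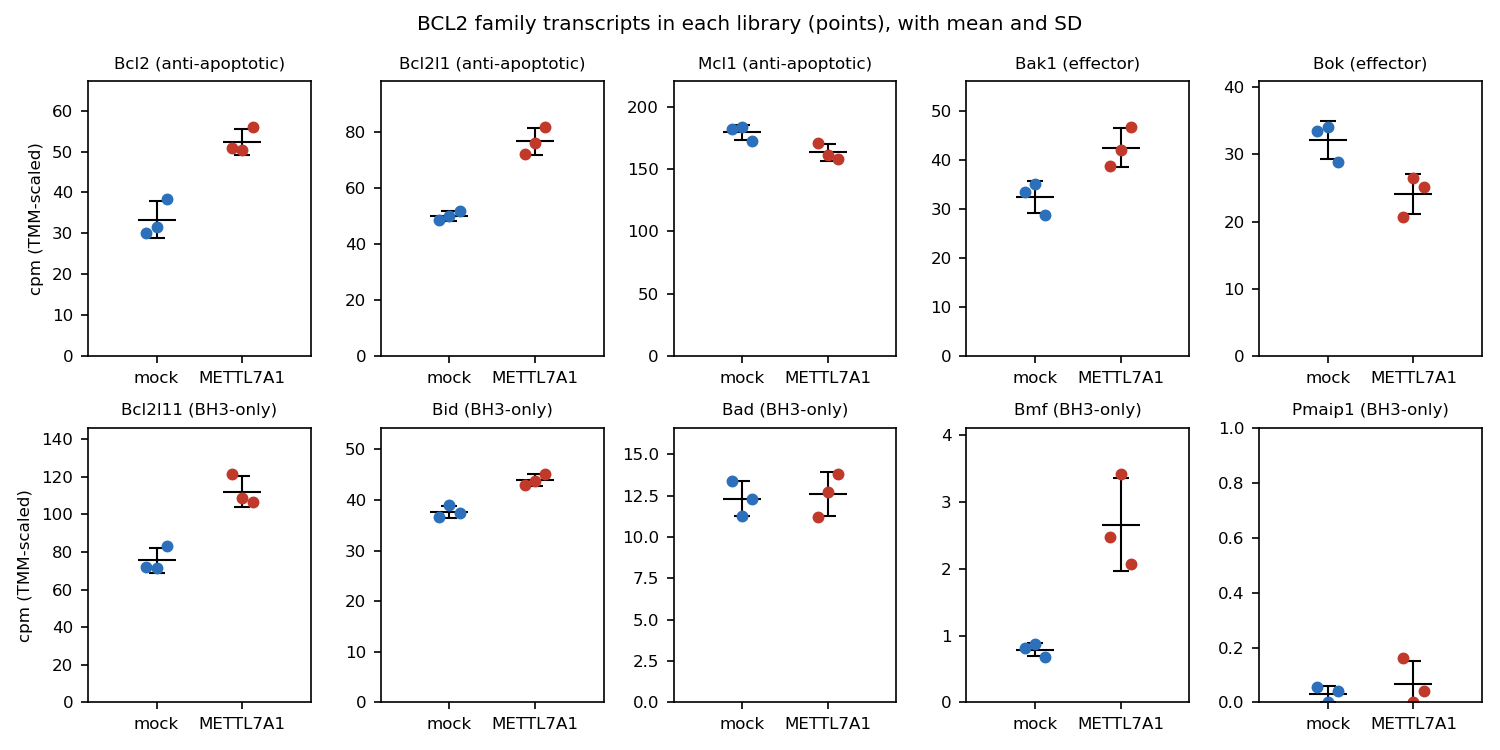
Abundance (cpm, linear axes that start at 0, a separate scale in each panel) of the 10 members in the 3 mock and 3 METTL7A1 libraries, with points for libraries and bars for mean ± SD. The METTL7A1 points lie above all mock points for Bcl2, Bcl2l1, Bak1, Bcl2l11, Bid and Bmf, below them for Bok and Mcl1, and among them for Bad and Pmaip1.

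Among the anti-apoptotic members, the abundance of Bcl2 and Bcl2l1 rose and that of Mcl1 did not pass the test. Bcl2 (chr1:106538178-106714274, minus strand), the founding member, which guards the mitochondrial and endoplasmic reticulum membranes, was at 50.8, 50.3 and 56.0 cpm in METTL7A1 replicates 1 to 3 and at 30.2, 31.4 and 38.5 cpm in mock replicates 1 to 3. The mean was 52.4 ± 3.13 cpm against 33.4 ± 4.50 cpm, and the log2 fold change of 0.65 (SE 0.10, 95% interval 0.43 to 0.86) corresponded to a 1.57-fold higher level (edgeR adjusted p = 0.000345). Every METTL7A1 library lay above every mock library, although mock replicate 3 stood higher than the other mock libraries.

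Bcl2l1 (chr2:152780668-152831728, minus strand) encodes BCL-XL, which binds both effectors and BH3-only proteins, and its splice forms, which include the pro-apoptotic BCL-XS, were not distinguished by counts per gene. Its level was 72.3, 76.0 and 81.8 cpm with METTL7A1 and 48.5, 49.97 and 51.9 cpm in mock. The groups were well apart, at 76.7 ± 4.77 against 50.1 ± 1.70 cpm, a 1.53-fold difference (log2 fold change 0.61, SE 0.07, edgeR adjusted p = 6.28e-05).

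Mcl1 (chr3:95658788-95663176, plus strand) encodes a short-lived anti-apoptotic protein that many tumour cells depend on. It was at 171, 161 and 158 cpm with METTL7A1 and at 182, 184 and 173 cpm in mock. The groups did not overlap, but the difference was small and was not called (log2 fold change -0.13, SE 0.07, 95% interval -0.29 to 0.02, edgeR adjusted p = 0.141). The interval leaves room for a fall of up to 0.29 on the log2 scale but not for a rise of the size seen in Bcl2 or Bcl2l1.

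The 2 effectors moved in opposite directions. Bak1 (chr17:27019810-27029009, minus strand) encodes BAK, which resides in the outer mitochondrial membrane and oligomerises there. It reached 38.8, 42.2 and 46.7 cpm with METTL7A1 and 33.4, 35.0 and 28.7 cpm in mock. The difference was 1.32-fold (log2 fold change 0.40, SE 0.10, edgeR adjusted p = 0.00655), with the lowest METTL7A1 library still above the highest mock library.

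Bok (chr1:93685660-93695764, plus strand) encodes an effector that is found mainly at the endoplasmic reticulum and is controlled by protein degradation. It was at 20.7, 26.5 and 25.1 cpm with METTL7A1 and at 33.5, 34.0 and 28.8 cpm in mock. The mean was 24.1 ± 3.02 against 32.1 ± 2.86 cpm, 0.754 times the mock level in the fit (log2 fold change -0.41, SE 0.10, 95% interval -0.64 to -0.18, edgeR adjusted p = 0.00928). METTL7A1 replicate 1 was the lowest library, and no METTL7A1 library reached the mock range.

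Of the BH3-only members, Bcl2l11, Bid and Bmf rose. Bcl2l11 (chr2:128126038-128162547, plus strand) encodes BIM, which binds all the main anti-apoptotic proteins and also activates effectors. It was at 122, 108 and 106 cpm with METTL7A1 and 72.2, 71.4 and 83.2 cpm in mock. The groups were separated by more than their spread, with 112 ± 8.26 against 75.6 ± 6.63 cpm (1.48-fold, log2 fold change 0.57, SE 0.08, edgeR adjusted p = 0.000309).

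Bid (chr6:120892854-120916853, minus strand) encodes the protein that caspase-8 cleaves to link death receptors to mitochondria. Its difference was the smallest of those called: 42.9, 43.6 and 45.2 cpm with METTL7A1 against 36.6, 39.0 and 37.4 cpm in mock, a 1.17-fold rise (log2 fold change 0.22, SE 0.07, 95% interval 0.07 to 0.37, edgeR adjusted p = 0.0230). The libraries of a group were close together, and the groups did not overlap. The call of Bid did not hold without METTL7A1 replicate 2 (adjusted p = 0.0854), without METTL7A1 replicate 3 (0.0718) or without mock replicate 1 (0.0577), each by edgeR.

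Bmf (chr2:118528757-118549687, minus strand) encodes a BH3-only protein that is held at the cytoskeleton through dynein light chains and released under stress. It had the largest fold change and the lowest level per kb of the tested members. It held 46, 101 and 51 counts in the METTL7A1 libraries and 15, 21 and 17 counts in the mock libraries, or 2.48, 3.42 and 2.07 cpm against 0.820, 0.867 and 0.684 cpm. The difference was 3.38-fold (log2 fold change 1.76, SE 0.27, 95% interval 1.17 to 2.34, edgeR adjusted p = 0.000377). METTL7A1 replicate 2 stood above the other libraries, and the lowest METTL7A1 library was still above all mock libraries. All mock libraries were under 1 cpm. In fits whose filter did not rest on the METTL7A1 libraries, with no filter or with at least 10 counts in every library, Bmf was also called higher.

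The sequences around the start sites of Bcl2 and Bmf are shown because these members had the largest fold changes among the tested anti-apoptotic and BH3-only members. The windows are from RefSeq (GRCm38.p6) and hold 250 bases before the annotated start and 50 from it, and 9 members matched 15 windows. Bcl2 had 1 window and Bmf had 3, of which the one at the 5′ end of the gene in the count table is printed. Capitals mark the motifs searched on both strands: GGGCGG (the GC box), TATAAA (the TATA box), CCAAT (the CCAAT box), CACGTG (the E-box bound by MYC and related factors) and TGATGNAAN (a CHOP and ATF4 composite site), and GC boxes and CCAAT read on the opposite strand appear as CCGCCC and as ATTGG. Bcl2 is given at chr1:106714241-106714540 and Bmf at chr2:118549637-118549936, both 5′ to 3′ on the minus strand.
Bcl2: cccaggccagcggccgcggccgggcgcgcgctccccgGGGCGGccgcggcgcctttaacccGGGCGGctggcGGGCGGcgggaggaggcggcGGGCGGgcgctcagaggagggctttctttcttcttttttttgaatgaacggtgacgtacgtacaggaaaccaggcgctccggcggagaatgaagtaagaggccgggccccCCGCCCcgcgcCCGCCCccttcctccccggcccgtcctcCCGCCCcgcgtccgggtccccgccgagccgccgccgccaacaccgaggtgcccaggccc
Bmf: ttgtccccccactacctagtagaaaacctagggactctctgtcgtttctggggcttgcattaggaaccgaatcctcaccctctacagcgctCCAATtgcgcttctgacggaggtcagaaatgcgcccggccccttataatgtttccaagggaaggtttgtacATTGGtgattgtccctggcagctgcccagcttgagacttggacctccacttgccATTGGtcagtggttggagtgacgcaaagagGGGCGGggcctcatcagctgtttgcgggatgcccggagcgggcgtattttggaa

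These windows differed in composition. The Bcl2 window had 76.0% G and C with 44 CpG dinucleotides and 7 GC boxes, and the printed Bmf window had 55.3% with 13 CpG, 1 GC box and 3 CCAAT matches. The other 2 Bmf windows held no GC box, 8 and 6 CpG, and 0 and 1 CCAAT match. The median over all windows was 52.7% G and C. Over 32851 windows of the same length, GGGCGG was present in 35.7%, CCAAT in 37.4%, TATAAA in 13.6%, CACGTG in 7.2% and TGATGNAAN in 4.0%. Neither printed window held the TATA box, the E-box or the composite site. A match is a description of letters and not of a factor bound there.

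For the remaining BH3-only members no difference was shown. Bad (chr19:6941861-6951898, plus strand) encodes a protein that is kept inactive by phosphorylation and 14-3-3 binding. It was at 11.2, 12.7 and 13.8 cpm with METTL7A1 and at 13.4, 11.3 and 12.3 cpm in mock, so that the groups overlapped. The log2 fold change was 0.04 with a 95% interval of -0.21 to 0.29 (edgeR adjusted p = 0.811). The exons of Bad overlap those of Gpr137 on the opposite strand, which held up to 421 counts in a library, and because the strand setting of the counting is not stated, the split of reads between them is uncertain. Bak1 has such an overlap with Ggnbp1 (up to 114 counts) and Bcl2 with D630008O14Rik (up to 4 counts).

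Pmaip1, which encodes NOXA, the BH3-only protein that targets MCL1, was nearly absent from these libraries. It held 3, 0 and 1 counts with METTL7A1 and 1, 0 and 1 counts in mock. No library held more than 3 counts, a level that corresponds to 0.102 to 0.164 cpm depending on the library, so that a difference was not detectable at this depth.

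To compare levels between members, cpm were divided by the exon length of each gene in kb. This length sums all annotated exons of a gene and can exceed that of the main transcript. In mock cells, the order of mean levels in cpm per kb was Mcl1 (52.5), Bok (21.7), Bid (17.2), Bak1 (13.6), Bcl2l1 (12.9), Bcl2l11 (11.0), Bad (7.82), Bcl2 (3.65), Bmf (0.164) and Pmaip1 (0.0120). The libraries of Bak1 overlapped those of Bcl2l1 and of Bcl2l11, and all other neighbours in this order were apart. With METTL7A1, Mcl1 again led (47.9), followed by Bid (20.1), Bcl2l1 (19.7), Bak1 (17.8), Bok (16.3), Bcl2l11 (16.3), Bad (7.99), Bcl2 (5.72), Bmf (0.550) and Pmaip1 (0.0255). From Bid to Bcl2l11 each neighbour overlapped the next, but Bid and Bcl2l1 lay wholly above Bok and Bcl2l11, and Bid also above Bak1. Among the members, Bok thus stood apart in second place in mock cells and below Bid and Bcl2l1 in METTL7A1 cells.

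The makeup of the 10 members shifted accordingly. The summed level of the 10 members was 149, 152 and 155 cpm per kb with METTL7A1 and 142, 143 and 137 cpm per kb in mock. Mcl1 made up 31.5 ± 1.92% of it with METTL7A1 and 37.4 ± 0.379% in mock, and Bok 10.7 ± 1.22% against 15.4 ± 1.02%. Bcl2l1 made up 12.9 ± 0.563% against 9.18 ± 0.510%, and Bcl2l11 10.7 ± 0.982% against 7.82 ± 0.881%. None of these 4 shares overlapped between the groups. The levels of these 4 members were themselves separated in the same directions, so this outcome adds no support. Shares sum to a fixed total, so a member can lose share without a lower level, as Mcl1 did with a fold change that was not called.

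**Figure D2:**
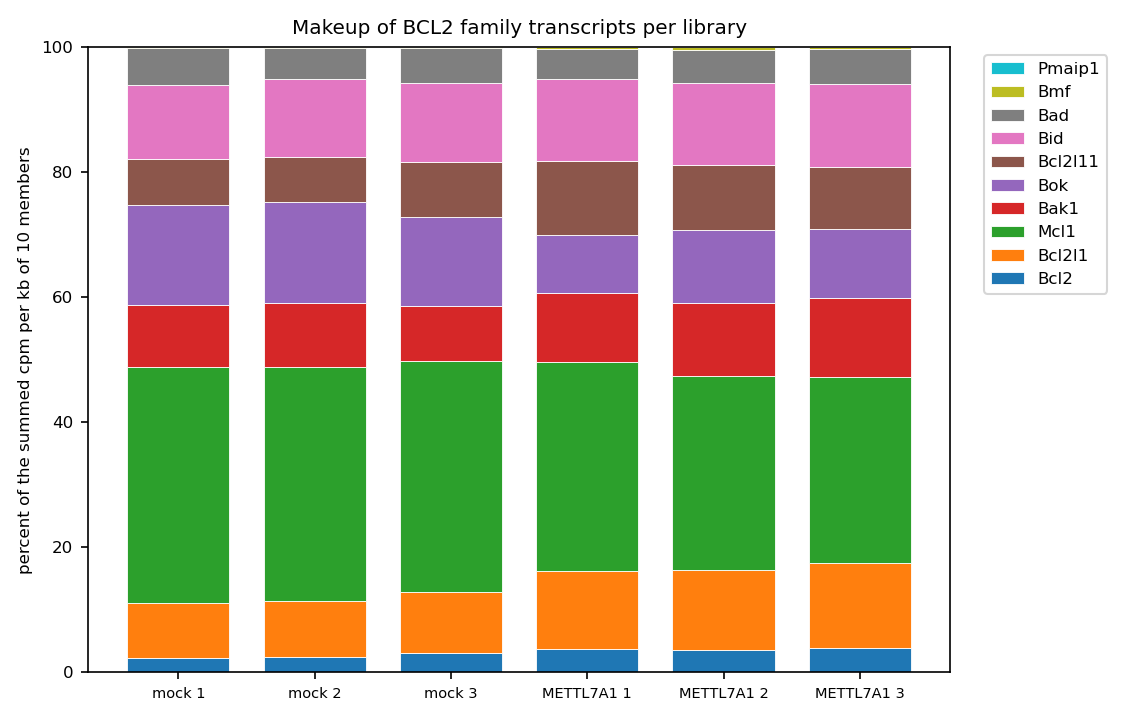
Share of each member (percent of the summed cpm per kb of the 10 members, axis from 0 to 100) in each of the 6 libraries, stacked by gene. The Mcl1 segment is 37.0 to 37.7% in mock and 29.8 to 33.5% with METTL7A1, and the Bok segment is 14.3 to 16.1% against 9.36 to 11.8%.

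Summed by role, the anti-apoptotic members held 48.2 ± 1.35% of the family level with METTL7A1 and 49.2 ± 0.547% in mock, and these ranges overlapped. BH3-only members held 29.5 ± 0.503% against 25.8 ± 1.23% without overlap, and effectors 22.4 ± 1.86% against 25.1 ± 1.76% with overlap. The summed BH3-only level was itself apart, at 44.9 ± 0.407 cpm per kb with METTL7A1 against 36.2 ± 0.842 in mock, so the separation of its share adds no support. Per kb, the ratio of Mcl1 to Bcl2l1 was 2.44 ± 0.249 with METTL7A1 and 4.08 ± 0.260 in mock, that of Mcl1 to Bcl2 8.40 ± 0.754 against 14.6 ± 2.27, and that of Bok to Bak1 0.914 ± 0.0865 against 1.60 ± 0.0284. Bok was thus above Bak1 in every mock library, while the ratio lay between 0.861 and 1.01 with METTL7A1. The ratio of Bcl2l11 to Mcl1 was 0.339 ± 0.0106 against 0.209 ± 0.0257. None of these 4 ratios overlapped between groups. Each pairs members whose own levels were separated in opposite directions, so this outcome followed from those levels and adds no support. In contrast, Bcl2l1 to Bcl2 (3.45 against 3.57) and Bcl2l11 to Bcl2 (2.85 against 3.02) overlapped, as these 3 genes rose by similar factors.

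To see whether the members stood apart from their chromosome surroundings, each was set beside the 40 nearest abundant genes on its chromosome (average log2 cpm over 2). Bcl2 had a neighbour median log2 fold change of -0.00, with 39 of 40 neighbours below it, but these neighbours reached out to 13.2 Mb and only 10 of them lay within 2 Mb. Among the closest genes, which were named after their values were seen, Kdsr rose by 0.57 (edgeR adjusted p = 0.00125) at 0.182 Mb and Serpinb5 by 1.05 (adjusted p = 0.00108) at 0.323 Mb. The other neighbours out to 0.973 Mb did not share this rise. Their log2 fold changes were 0.07 for Vps4b, at 0.226 Mb, 0.05 for Zcchc2 and 0.01 for Gm37566. Gm38235 was at -0.16, Phlpp1 at -0.09, 2310035C23Rik at -0.15 and Serpinb2 at -1.74. Bok lay at the lower end of its neighbours (median -0.05), of which 39 of 40 had a higher log2 fold change. These reached out to 4.59 Mb, with 20 of them within 2 Mb.

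The 3 members on chromosome 2 lay among genes that were higher as a group. The neighbour median was 0.35 for Bmf, 0.26 for Bcl2l11 and 0.23 for Bcl2l1. Bmf and Bcl2l1 each exceeded 39 of their 40 neighbours, whereas 8 of the 40 neighbours of Bcl2l11 rose more than it did. Bmf had to differ through its filter, so its rank adds no support. Its level (2.66 against 0.790 cpm) was also under that asked of its neighbours. From Bmf to Bcl2l1 (chr2:118528757-152780668, 34.3 Mb), 205 abundant genes had a median log2 fold change of 0.24, with 103 of them (50.2%) called higher and 13 lower, compared with 290 higher and 87 lower among 848 genes of the whole chromosome, whose median was 0.13. Relative to the mock mean, the median of this stretch was 0.23, 0.23 and 0.25 in the METTL7A1 libraries and between -0.04 and 0.04 in the mock libraries. Bak1 on chromosome 17 also lay among higher genes, with a neighbour median of 0.21 and 16 of 40 neighbours above it. The part of copy number or of other regional differences between the lines in these values was not tested.

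**Figure D3:**
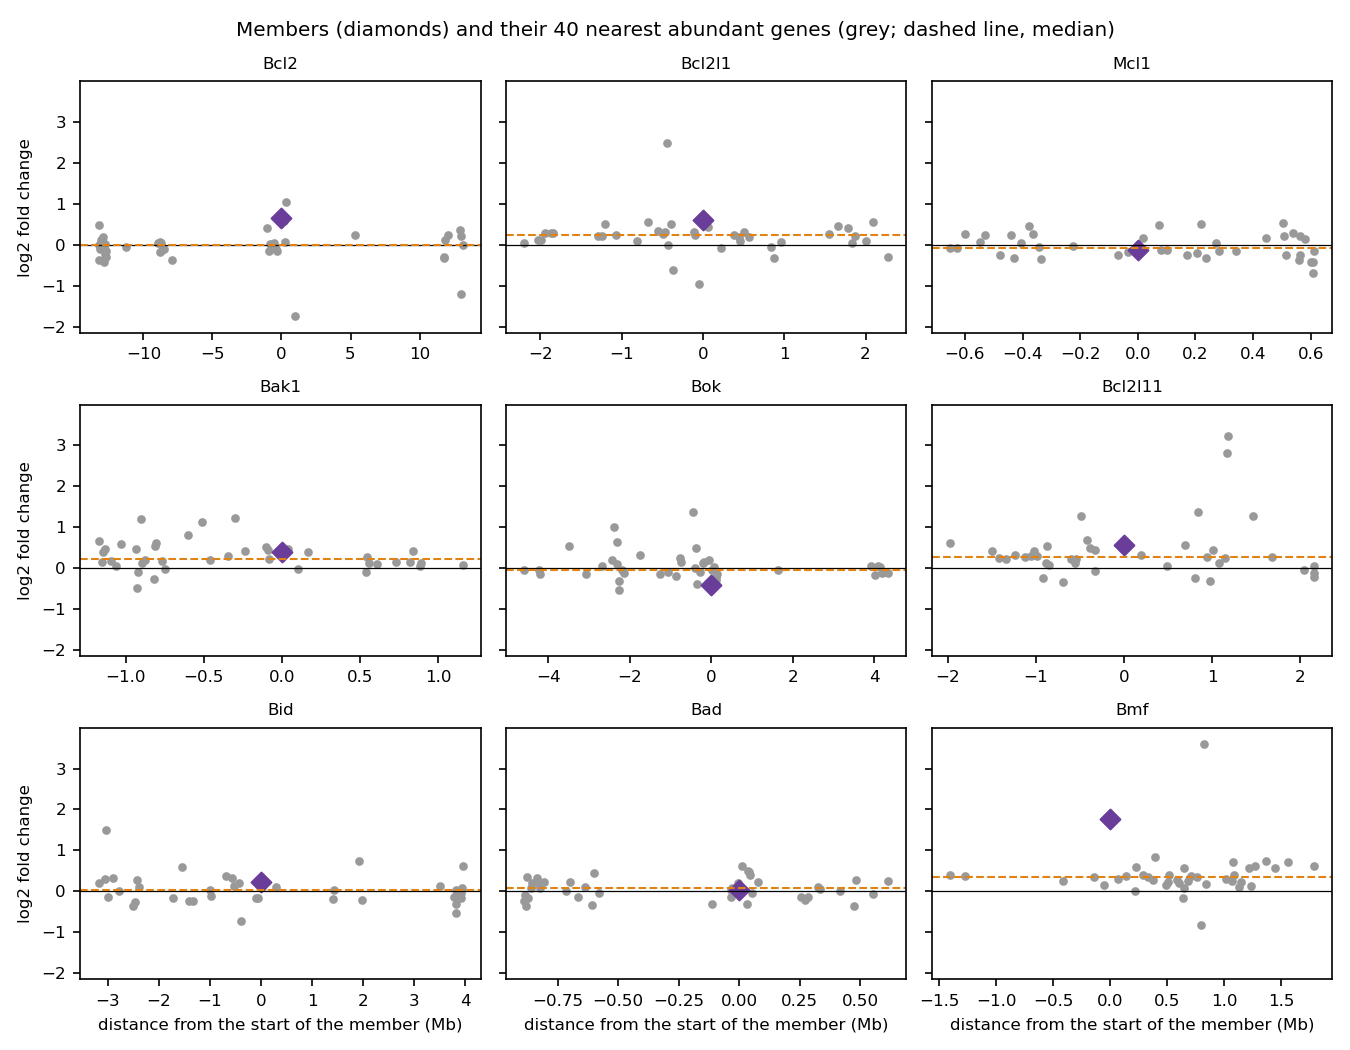
Log2 fold change (METTL7A1 against mock) of each tested member (diamond) and its 40 nearest abundant genes (grey points, median as dashed line) against distance from the start of the member in Mb, on 1 vertical scale. The dashed line lies above 0 around Bcl2l1, Bcl2l11, Bmf and Bak1 (0.23, 0.26, 0.35 and 0.21) and near 0 around Bcl2 and Bok.

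When the neighbour median was removed from each gene as an offset in the fit, 5 members were called by edgeR: Bcl2 with a log2 fold change of 0.65 (adjusted p = 0.000464), Bcl2l1 with 0.38 (0.00208), Bcl2l11 with 0.30 (0.0176), Bmf with 1.41 (0.00222) and Bok with -0.36 (0.0229). Over all 13166 tested genes, 4139 were called in that fit, against 5537 in the main fit. Bak1, at 0.19 (edgeR adjusted p = 0.168), and Bid, at 0.18 (0.0630), were then no longer called. The neighbour medians of Bcl2l11 (0.26) and Bcl2l1 (0.23) were positive, so removing them had to lower the values of these genes. The neighbour median of Bcl2 was -0.004 and came mostly from distant genes, so its value hardly moved. Bmf had passed the filter through its METTL7A1 libraries alone, so its call with the offset adds no support.

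**Figure D4:**
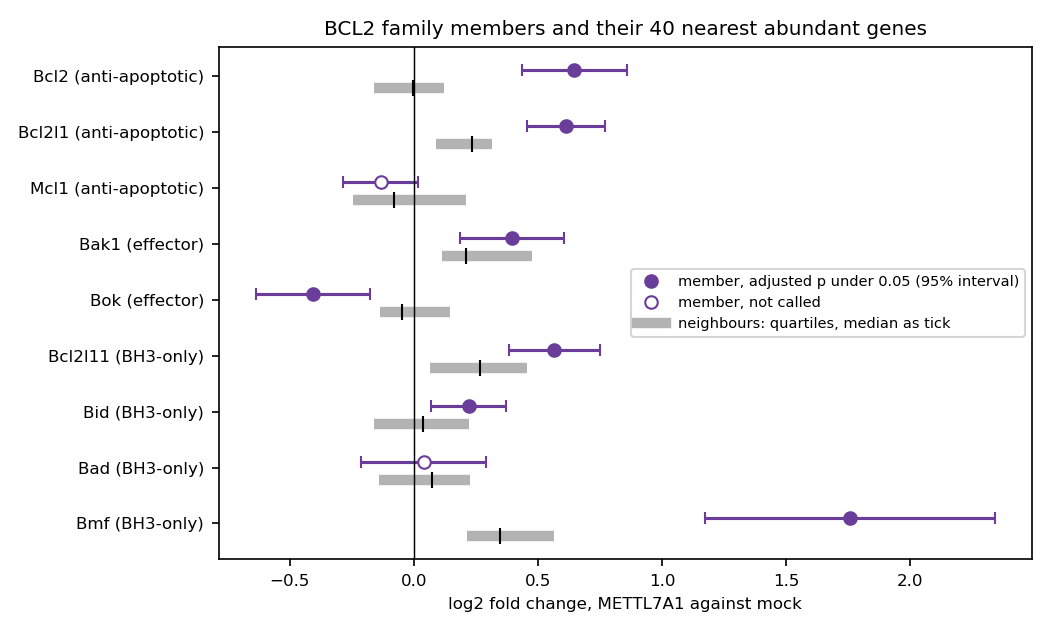
Log2 fold change (METTL7A1 against mock) of the 9 tested members with 95% intervals (filled points, adjusted p under 0.05), and below each the quartile range and median tick of its 40 neighbours. Bmf, at 1.76, lies farthest right, Bok, at -0.41, farthest left, and the intervals of Bcl2, Bcl2l1, Bok and Bmf lie outside the quartile range of their neighbours.

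Other genes of the family were measured beside the members. Of 13 such genes, 6 passed the filter and 4 of these (66.7%) were called, against 42.1% of all tested genes, 1 higher and 3 lower, and the median log2 fold change was -0.21. The lower calls fell to 1 with the neighbour offset or the replicate block and to 0 without METTL7A1 replicate 2 or mock replicate 1. Calls over all genes also fell, from 5537 to 4139 and 4810 of 13166, 3761 of 12927 and 4251 of 12997, in that order. Bcl2l15, a less studied relative, was at 17.2, 19.0 and 15.6 cpm with METTL7A1 and at 3.88, 2.97 and 3.94 cpm in mock (log2 fold change 2.27, SE 0.14, edgeR adjusted p = 7.9e-07) and was the 1 gene of this list past the thresholds of the study. Bax, the effector that acts in parallel with BAK, fell by 0.27 on the log2 scale (16.9 ± 0.882 against 20.4 ± 1.49 cpm, edgeR adjusted p = 0.0353), Bcl2l12 by 0.56 (adjusted p = 0.0103) and Bcl2l2, which encodes the anti-apoptotic BCL-W, by 0.29 (adjusted p = 0.0445). Bax lay among neighbours with a median of -0.11 and was not called with the neighbour offset (-0.16, edgeR adjusted p = 0.216). Bcl2l2 lay among neighbours with a median of -0.31, its groups overlapped, and with the offset its direction turned (0.014, edgeR adjusted p = 0.936). Bik, Hrk, Bcl2l10, Bcl2l14, Bcl2a1a, Bcl2a1b and Bcl2a1d were under the filter, and reads of the near-identical Bcl2a1 copies cannot be assigned with certainty.

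Downstream of the mitochondria, all 16 caspase and apoptosome genes were tested and 8 of them (50%) were called, near the 42.1% of all tested genes, 2 higher and 6 lower, and the median log2 fold change was 0.08. The split was 3 higher and 4 lower with the neighbour offset and 4 higher and 5 lower without METTL7A1 replicate 1. Over all genes, these fits called 4139 of 13166 and 5373 of 12898. Cycs, the gene of cytochrome c, fell by 0.47 on the log2 scale (43.9 ± 3.17 against 60.9 ± 4.78 cpm, edgeR adjusted p = 0.000928). Casp6, an executioner caspase gene, rose by 0.76 (9.60 ± 1.21 against 5.66 ± 0.692 cpm, edgeR adjusted p = 0.00162). Apaf1, the scaffold of the apoptosome, rose by 0.33 (adjusted p = 0.00459) among neighbours with a median of 0.47, and was not called with the offset (-0.14, edgeR adjusted p = 0.187). The inhibitor of apoptosis genes Birc3 and Birc6 fell by 0.58 (edgeR adjusted p = 0.000217) and by 0.34 (adjusted p = 0.00514). Endog, the gene of a mitochondrial nuclease, fell by 0.59 (edgeR adjusted p = 0.0399) and was not called with the offset (-0.48, adjusted p = 0.104).

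Of 15 genes whose proteins bind, phosphorylate or degrade BCL2 family members, 14 were tested and Trim17 was under the filter. Of these, 6 (42.9%) were called, the background share being 42.1%, 2 higher and 4 lower, with a median log2 fold change of -0.13. With the neighbour offset the split was 3 higher and 1 lower, in a fit that called 4139 of 13166 genes. Both higher genes encode PIM kinases, which phosphorylate BAD: Pim1 was at 39.8 ± 2.43 against 11.6 ± 0.730 cpm (log2 fold change 1.78, SE 0.09, edgeR adjusted p = 1.56e-07) and Pim3 at 85.9 ± 7.82 against 45.2 ± 5.69 cpm (0.93, adjusted p = 3.76e-05). Pim1 also passed the thresholds of the study. Vdac2, a channel protein that recruits BAK, fell by 0.48 (edgeR adjusted p = 0.00131) among neighbours with a median of -0.39. Huwe1, a ubiquitin ligase of MCL1, fell by 0.26 (adjusted p = 0.0202), Dynll1, a dynein light chain, by 0.30 (adjusted p = 0.0274) and Akt1, a kinase of BAD, by 0.24 (adjusted p = 0.0498), with overlapping groups for Dynll1 and Akt1. None of these 4 lower genes was called with the neighbour offset (edgeR adjusted p = 0.5004 for Vdac2, 0.142 for Huwe1, 0.170 for Dynll1 and 0.791 for Akt1).

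**Figure D5:**
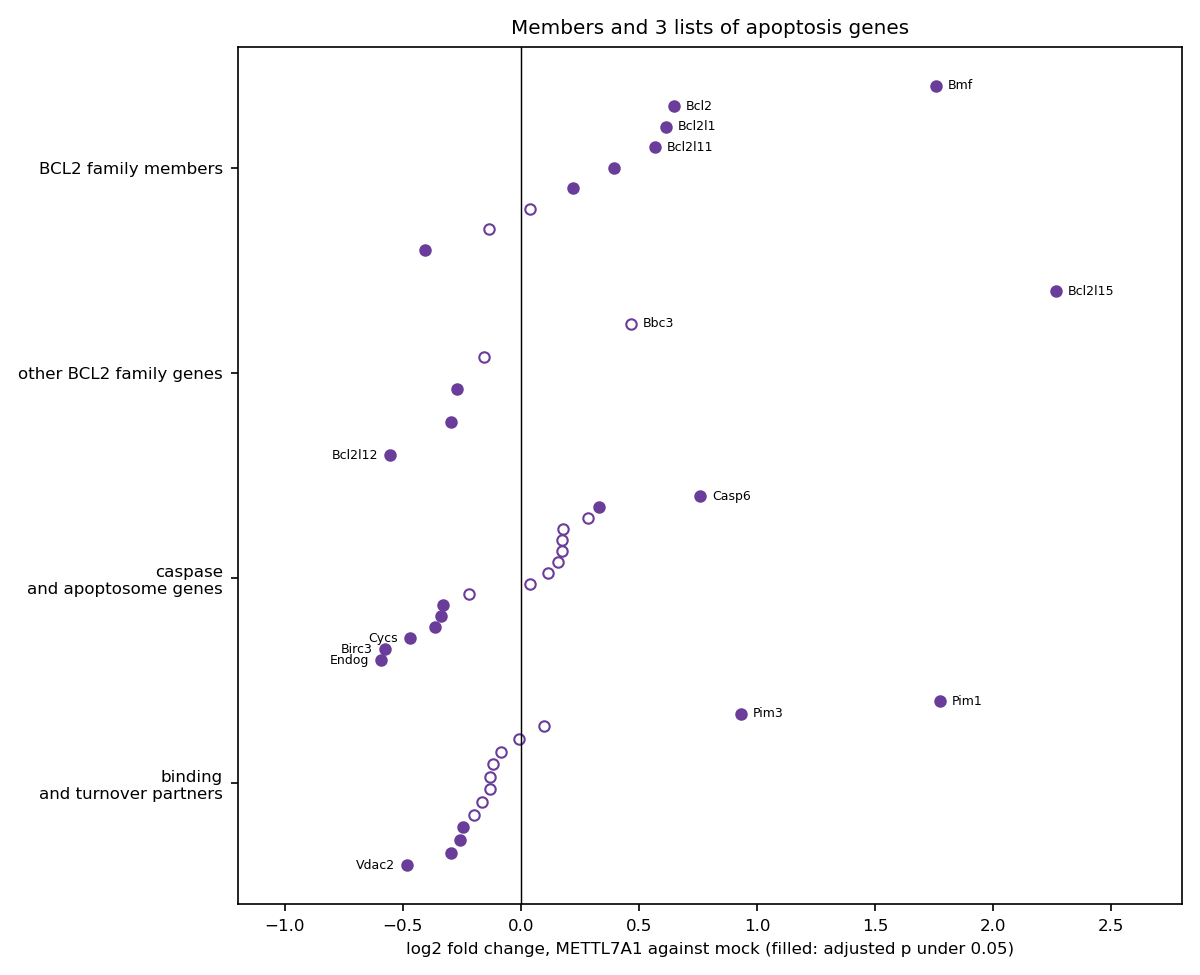
Log2 fold change (METTL7A1 against mock) of the tested genes of 4 groups: the 9 tested members, 6 other BCL2 family genes, 16 caspase and apoptosome genes and 14 binding and turnover partners, with filled points for an adjusted p under 0.05 and names on points beyond 0.45 in either direction. Bcl2l15, Pim1 and Bmf lie farthest to the right, at 2.27, 1.78 and 1.76.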

How the data were processed

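RNA of 3 METTL7A1 and 3 mock 4T1 cultures was depleted of ribosomal RNA and sequenced as stranded libraries. The authors cleaned the ends of reads (BBDuk), mapped pairs to mm10 (STAR) and deposited raw counts per gene made with featureCounts, without normalization. Strand setting and treatment of multiply mapped reads are not given in the sources used here. Groups and replicate numbers came from the sample titles.

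Counts were analysed with edgeR 4.0.16 in R 4.3.3: TMM scaling, genes with at least 1 cpm in at least 3 libraries (the filter of the study), glmQLFit and glmQLFTest with no covariate, and Benjamini-Hochberg adjustment over 13166 genes. A gene was called at an adjusted p under 0.05. The fold change threshold of the study was read as log2, since its base is not given. Intervals are 95% intervals of the fit. Members, lists and tests were chosen with earlier results of these data known. All members are named, and of each other list up to 6 called genes with the smallest p, genes past the study thresholds and genes under the filter. Endog was named after its values were seen, and some called genes of the caspase list are not reported here by name.

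Gene positions come from the deposited table (mm10, 1-based) and coding stretches from GENCODE M21 on the same build, and start windows are RefSeq's. Alternatives were RLE and upper quartile scaling, no filter, a minimum of 10 counts per library, omission of the 20 genes with the most counts, DESeq2 1.42.0, voom of limma 3.58.1, replicate number as a block, an offset for the 40 nearest genes, and leaving out each library.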

Additional observations from a re-analysis of the deposited data

How the results depend on the processing

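Bcl2, Bcl2l1, Bcl2l11, Bok and Mcl1 kept their direction and their side of the threshold in all 15 alternatives, and Bmf in the 12 in which it was tested. Bmf was under the filter whenever a METTL7A1 library was left out. Bak1 lost its call with the neighbour offset only, and Bid with the neighbour offset, with the replicate block (edgeR adjusted p = 0.0570) and without METTL7A1 replicate 2, METTL7A1 replicate 3 or mock replicate 1. Bad, which was never called, had log2 fold changes between -0.027 and 0.12 when libraries were left out and -0.035 with the neighbour offset. Members called numbered 5 to 7 over all alternatives. Calls over all genes moved as well, so the counts of each list are to be read beside them. They were 3761 of 12927 without METTL7A1 replicate 2 and 4251 of 12997 without mock replicate 1. With the neighbour offset they were 4139 of 13166, and without mock replicate 3 they were 5753 of 12930. Members past the study thresholds numbered 0 with the neighbour offset, where Bmf was at 1.41, and 0 to 1 when libraries were left out. The number was 0 without any 1 METTL7A1 library, where Bmf was not tested. Other BCL2 family genes called numbered 2 with the neighbour offset and 1 to 3 when libraries were left out, with 1 without METTL7A1 replicate 2 or mock replicate 1. Binding and turnover partners called numbered 3 to 7 when libraries were left out, with 3 without METTL7A1 replicate 2 or mock replicate 1. Over all genes, 326 of 13166 passed the study thresholds, but 710 of 28601 with no filter and 205 of 13495 with at least 10 counts in every library. The causes of the other changes were not tested.

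Deviations of same-numbered libraries correlated at -0.16, 0.23 and -0.39, with mixed signs. No values for libraries of different numbers stand beside these, so they do not decide whether replicate numbers pair the samples. With the number as a replicate block, 4810 genes, 6 members and 2 other BCL2 family genes were called. Depth limits Pmaip1 and, at 15 to 101 counts per library, Bmf. Counts per gene do not separate splice forms, and RNA levels do not measure protein.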
